A study of Homo sapiens with 6 samples.

Results

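Metallothioneins are short, cysteine-rich proteins that bind zinc, copper and cadmium. Their genes are switched on by MTF1, a zinc finger transcription factor that senses free zinc and binds metal response elements in their promoters. MTF1 also drives SLC30A1, the gene of the plasma membrane transporter that carries zinc out of the cell, and glucocorticoids raise some metallothionein genes as well. The values below describe 10 genes, namely the metallothioneins MT1A, MT1E, MT1F, MT1G, MT1H, MT1M, MT1X and MT2A, together with MTF1 and SLC30A1. They were taken by symbol from the 57781 rows of the count table, by a rule that holds no threshold on a measured value, but the family was picked with earlier results of these data known.

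The RNA came from A549, an established line of human lung adenocarcinoma cells. There were 3 vector libraries, labelled wild type and carrying the control vector, and 3 shMETTL3 libraries, in which METTL3 was knocked down by short hairpin RNA. METTL3 is the catalytic subunit of the complex that writes N6-methyladenosine (m6A) on mRNA. All cells were grown in DMEM with serum, and the labels name no added metal or hormone. Every library came from the same line, and the sources used here state neither how many hairpins the shMETTL3 libraries hold nor, for these libraries, whether those of a group came from separate cultures (the methods speak in general of experiments repeated independently), so the p-values measure the spread between these libraries, which may be technical. METTL3 itself was counted 887, 846 and 808 times in vector replicates 1, 2 and 3, and 364, 399 and 307 times in shMETTL3 replicates 1, 2 and 3. Its level in shMETTL3 was 38.8% of that in vector, with p = 0.1 by exact permutation (two-sided), below which 3 libraries against 3 cannot go.

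The library totals lay between 14931426 and 19108928 counts. Of the 6 epithelial markers, all were above 3 counts in every library, but their summed level was 9970.6 to 10634 CPM (counts per 1000000 counts of the scaled library) in vector and 5152.7 to 5602 CPM in shMETTL3, with 5 lower and 1 higher. Fibroblast markers summed to 6.46 to 9.87 CPM in vector and 14.3 to 14.7 CPM in shMETTL3, with 2 of 6 above 3 counts in every library. Blood markers summed to 0.838 to 1.59 CPM in vector and 0.189 to 0.299 CPM in shMETTL3, with 4 of 5 at or under 3 counts everywhere, CD3E at 0 among them. The 4 endothelial markers in the table summed to 0 to 0.245 CPM in vector and 1.50 to 2.27 CPM in shMETTL3, where CDH5 had 30, 28 and 30 counts against 0, 0 and 2 in vector and VWF stayed at 0. The part of these shifts in the results below was not tested.

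The promoters of MT2A, MT1X and MT1H are printed because metal response elements are the sequence through which MTF1 acts on this family. Of the 10 genes, 5 were matched in the RefSeq promoter table of GRCh38.p14, namely MT2A, MT1X, MT1H, MTF1 and SLC30A1. The window is the 250 bases before the start of the gene, written 5′ to 3′ on the plus strand, which is the strand of these genes. It lies at chr16:56608334-56608583 for MT2A, at chr16:56682220-56682469 for MT1X and at chr16:56669564-56669813 for MT1H. Capitals mark matches to the core of the metal response element, searched on both strands as TGCACNC and TGCGCNC with N for any base.
MT2A: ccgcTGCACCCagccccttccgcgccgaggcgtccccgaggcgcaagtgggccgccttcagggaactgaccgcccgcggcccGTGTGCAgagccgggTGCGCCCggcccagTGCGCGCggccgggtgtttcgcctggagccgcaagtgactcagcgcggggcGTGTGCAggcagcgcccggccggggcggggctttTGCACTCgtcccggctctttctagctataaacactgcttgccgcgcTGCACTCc
MT1X: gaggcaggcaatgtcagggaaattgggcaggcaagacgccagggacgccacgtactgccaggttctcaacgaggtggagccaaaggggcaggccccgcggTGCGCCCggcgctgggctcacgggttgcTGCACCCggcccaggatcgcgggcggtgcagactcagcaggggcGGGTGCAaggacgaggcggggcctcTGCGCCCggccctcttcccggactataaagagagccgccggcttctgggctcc
MT1H: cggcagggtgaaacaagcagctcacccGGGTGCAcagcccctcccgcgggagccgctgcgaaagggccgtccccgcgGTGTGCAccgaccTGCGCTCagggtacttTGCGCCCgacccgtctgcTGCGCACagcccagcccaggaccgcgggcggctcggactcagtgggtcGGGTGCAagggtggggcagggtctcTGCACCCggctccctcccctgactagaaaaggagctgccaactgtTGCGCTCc

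The MT2A window held 7 matches, 5 on the strand of the gene and 2 on the opposite strand. MT1X held 4, of which 1 was on the opposite strand, and MT1H held 8, of which 3 were on the opposite strand. Among the 35116 promoter windows of the same length, 24.8% held any match, 0.37% held at least 4, 0.0313% at least 7 and 0.0171% at least 8. SLC30A1 held 1 match, on the opposite strand at bases -49 to -43, and the MTF1 window held none. The windows of MT2A, MT1X and MT1H contained 73.2%, 70.0% and 70.4% G and C against a median of 58.0% over all windows. A match is a description of the letters, and binding of MTF1 was not measured.

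**Figure D1:**
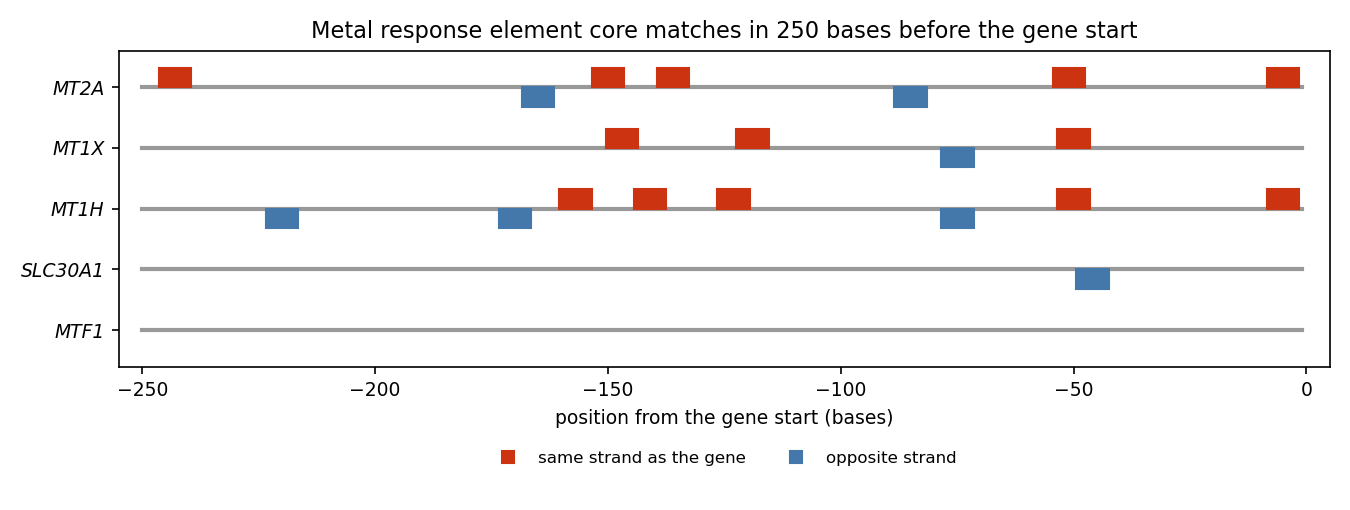
Each line is the 250 bases before the start of a gene, in bases from the start, and each box is a match to the metal response element core on the strand of the gene or on the opposite strand. MT2A holds 7 boxes, MT1X 4, MT1H 8 and SLC30A1 1, and the line of MTF1 is empty.

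MT2A, which made up nearly all metallothionein counts in these cells, rose about 5-fold in shMETTL3. The gene (ENSG00000125148) lies at 16:56642496-56643409 on the plus strand of GRCh37, and its canonical transcript has 3 exons and 401 bases. It had 247, 248 and 252 counts in vector replicates 1, 2 and 3, and 1500, 1426 and 1196 counts in shMETTL3 replicates 1, 2 and 3. After scaling by edgeR's TMM factors these counts were 13.8, 14.8 and 15.4 CPM in vector and 77.7, 71.1 and 75.3 CPM in shMETTL3. The groups were far apart and the libraries of each group lay close together, at 14.7 ± 0.854 CPM (SD, n = 3) and 74.7 ± 3.32 CPM (SD, n = 3). The log2 fold change, here always shMETTL3 minus vector, was 2.35 with a standard error of 0.070 (adjusted p = 7.53e-21, from the quasi-likelihood test of edgeR, adjusted by Benjamini and Hochberg's method over all genes tested), which is 5.09-fold. Of the 15125 genes tested, 426 had a higher log2 fold change and 79 a smaller p. In bulk RNA, more MT2A mRNA in each cell and more cells with much of it cannot be told apart.

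MT1F, at 16:56691643-56694610 on the plus strand of GRCh37, had more counts in every shMETTL3 library than in any vector library, at a much lower level. It had 7, 13 and 6 counts in vector replicates 1, 2 and 3, and 35, 47 and 22 counts in shMETTL3 replicates 1, 2 and 3. The lowest shMETTL3 library had 22 counts and the highest vector library 13. The means were 0.512 ± 0.231 CPM (SD, n = 3) in vector and 1.85 ± 0.480 CPM (SD, n = 3) in shMETTL3, with a log2 fold change of 1.86 and a standard error of 0.35.

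MT1X, at 16:56716382-56718108 on the plus strand of GRCh37, was at the edge of detection in vector. It had 3, 0 and 5 counts in vector replicates 1, 2 and 3, and 35, 22 and 10 counts in shMETTL3 replicates 1, 2 and 3. The groups did not overlap, but the shMETTL3 libraries were spread widely, at 1.18 ± 0.596 CPM (SD, n = 3) against 0.158 ± 0.153 CPM (SD, n = 3) in vector. The log2 fold change was 2.88 with a standard error of 0.57. Its size rested on the few vector counts. Without vector replicate 3, when the remaining vector libraries held at most 3 counts each, it was 3.69, and without vector replicate 2, which had no count, it was 2.32. Summed over libraries, 67 counts in shMETTL3 against 8 in vector gave a ratio of 7.73 after scaling by the TMM-scaled library sizes. Its exact 95% interval of 3.71 to 18.6 covers counting error only. MT1F and MT1X passed the filter on low counts only through the shMETTL3 libraries, so their place among the genes tested depends on their being high there, and their fold changes are given as a description.

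The remaining 5 metallothioneins had too few counts to be tested. MT1G, MT1H and MT1M had no count in any of the 6 libraries, and the MT1H window held the most matches among the 5 windows of these genes. A count of 0 allows up to 3 counts, or 0.150 to 0.189 CPM in these libraries. MT1A had 1, 0 and 0 counts in vector replicates 1, 2 and 3, and 6, 2 and 0 counts in shMETTL3. MT1E had 3 counts in vector replicate 3 and 5 counts in shMETTL3 replicate 3, and none in the other libraries. The ratio of summed counts, by the TMM-scaled library sizes, was 7.38 for MT1A (exact 95% interval 0.990 to 328) and 1.54 for MT1E (0.299 to 9.90). Both intervals include equal levels. A difference in MT1A or MT1E was therefore neither shown nor excluded at this depth.

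**Figure D2:**
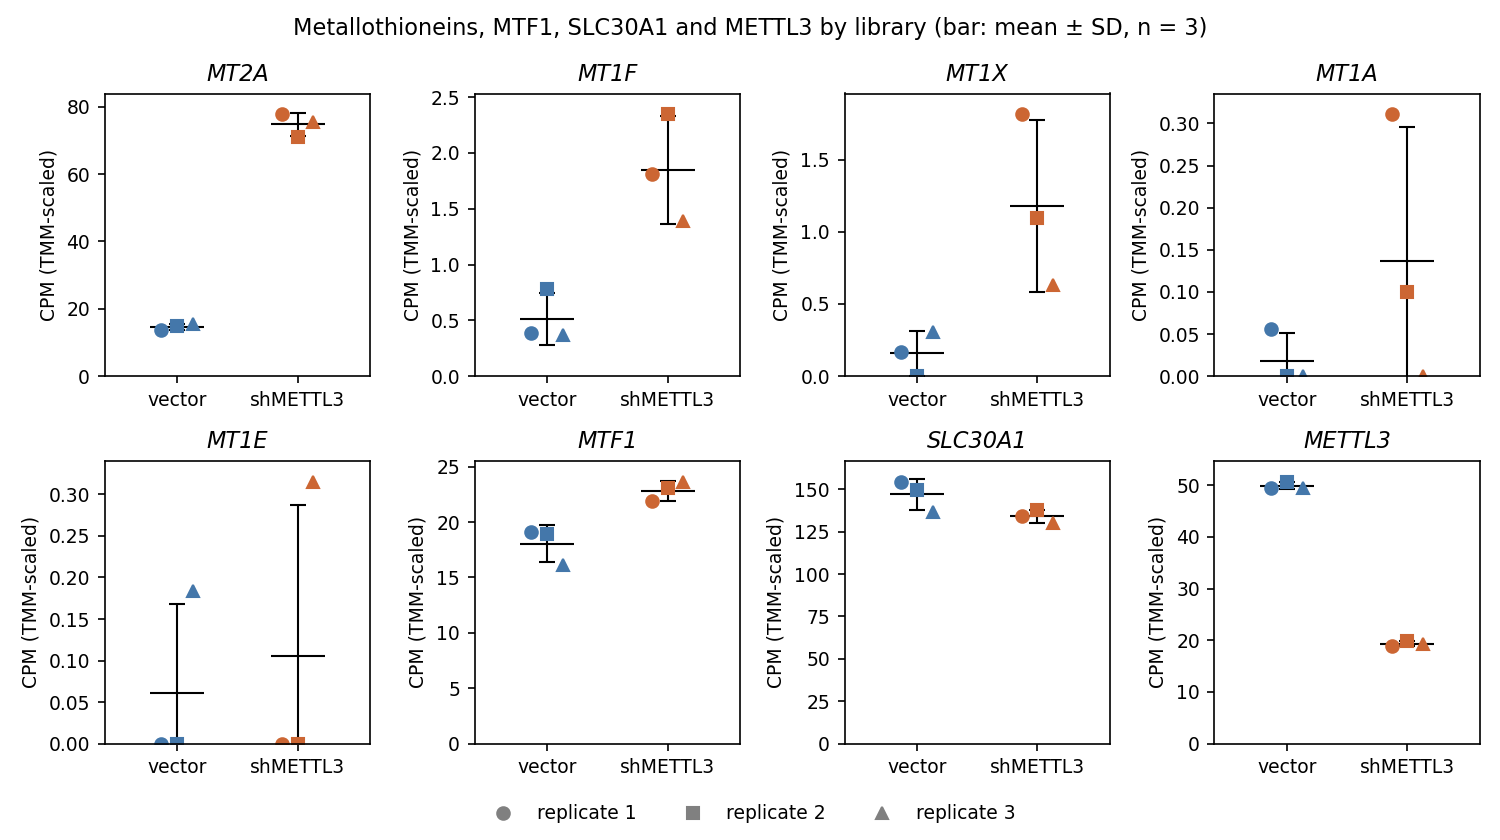
Each panel is a gene and each point a library, with TMM-scaled CPM on the vertical axis, which starts at 0, and bars for the mean ± SD of 3 libraries, cut at 0. MT2A lies at 13.8 to 15.4 CPM in vector and 71.1 to 77.7 CPM in shMETTL3, MTF1 at 16.1 to 19.1 and 21.9 to 23.6 CPM, and the SLC30A1 groups overlap.

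Summed over the 8 metallothioneins, the level was 14.4, 15.6 and 16.3 CPM in vector replicates 1, 2 and 3, and 81.6, 74.7 and 77.7 CPM in shMETTL3 replicates 1, 2 and 3. The ratio of the means was 5.05. MT2A supplied 95.2 ± 0.515% (SD, n = 3) of these counts in vector and 95.8 ± 1.03% (SD, n = 3) in shMETTL3, so the sum follows MT2A. MT1F supplied 3.32 ± 1.46% and 2.38 ± 0.692%, and MT1X 1.01 ± 0.949% and 1.50 ± 0.705%, of the counts in vector and shMETTL3. Each of these shares differed between the groups by less than the larger of its SDs. On the log2 scale, the fold change of MT1X minus that of MT2A was 0.54 with an approximate standard error of 0.57, and that of MT1F minus that of MT2A was -0.49 with 0.35, errors too wide to tell whether these genes changed alike.

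MTF1, the transcription factor, was slightly higher in shMETTL3. The gene lies at 1:38275246-38325264 on the minus strand of GRCh37, and had 343, 316 and 263 counts in vector replicates 1, 2 and 3, and 422, 462 and 375 counts in shMETTL3 replicates 1, 2 and 3. The groups did not overlap, with 18.0 ± 1.67 CPM (SD, n = 3) in vector and 22.8 ± 0.900 CPM (SD, n = 3) in shMETTL3. The log2 fold change was 0.34 with a standard error of 0.083 (adjusted p = 0.000834, edgeR). It was smaller than that of MT2A by 2.01 on the log2 scale, with an approximate standard error of 0.11.

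SLC30A1, the zinc exporter, was slightly lower in shMETTL3 with TMM scaling, a call that several alternatives lost and that became a value of 0.04 (not called) with library size alone. The gene lies at 1:211744910-211752503 on the minus strand of GRCh37, and had 2769, 2501 and 2230 counts in vector replicates 1, 2 and 3, and 2594, 2758 and 2062 counts in shMETTL3 replicates 1, 2 and 3. In CPM, vector replicate 3 at 136.68 lay below shMETTL3 replicate 2 at 137.56, so the groups overlap. The means were 146.88 ± 9.12 CPM (SD, n = 3) and 133.92 ± 3.86 CPM (SD, n = 3), with a log2 fold change of -0.13 and a standard error of 0.054 (adjusted p = 0.0320, edgeR). This call was lost without vector replicate 1 (adjusted p = 0.129), without vector replicate 2 (0.0715), without shMETTL3 replicate 1 (0.0839) and without shMETTL3 replicate 3 (0.132), all by edgeR. With library size alone the adjusted p was 0.546 (edgeR), and the median of all genes moved up by 0.17. Relative to the median of all genes the change was -0.14 under either scaling. MT2A minus SLC30A1 was 2.48 on the log2 scale, with an approximate standard error of 0.089.

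Of the 10 genes, 5 were tested. MT2A, MTF1 and SLC30A1 had counts well above the filter in both groups, and all 3 passed an adjusted p of 0.05, where 66.6% of all genes tested did. MT2A and MTF1 were higher and SLC30A1 was lower, and 33.7% and 32.9% of all genes tested were higher and lower. MT1F and MT1X passed as well, but since they entered the test through the group where they are high, their calls add nothing to these counts. MT2A was higher by a log2 fold change of at least 1, as were 10.2% of all genes tested. The groups did not overlap for MT2A and MTF1, nor for 69.4% of all genes tested.

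Levels between genes were compared per kilobase of annotated exon. In vector the order was SLC30A1 with 24.9 ± 1.55 CPM per kilobase (SD, n = 3), MT2A with 16.1 ± 0.934, MTF1 with 2.26 ± 0.209, MT1F with 0.276 ± 0.125 and MT1X with 0.0914 ± 0.0889. In shMETTL3 MT2A came first with 81.7 ± 3.64 CPM per kilobase (SD, n = 3), ahead of SLC30A1 with 22.7 ± 0.655, MTF1 with 2.86 ± 0.113, MT1F with 0.998 ± 0.259 and MT1X with 0.683 ± 0.345. MT1F and MT1X, neighbours in this order, lay within the spread of the libraries in shMETTL3. The order of the levels depends on the length used. With the canonical transcript, a choice made after seeing the data, MT2A had 36.6 CPM per kilobase in vector and stood above SLC30A1. The order in shMETTL3 also turned with that length, since MT1F then had 4.35 and MT1X 2.92 CPM per kilobase against 2.88 for MTF1. The SD of MT1X was 1.47 (n = 3), so MT1X and MTF1 lay within the spread of the libraries.

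Metallothionein transcripts resemble each other, and reads can be shared between them and their pseudogenes. Of the 50-base windows along the canonical transcript, 89.5% were found at a single place in GRCh37, or across an exon junction in no other gene's transcript, for MT2A, 96.3% for MT1F and 71.8% for MT1X. At 100 bases the values were 100% for MT2A and MT1F and 78.0% for MT1X, and at 150 bases 93.3% for MT1X. MT1X shares 321 exon bases on the same strand with the overlapping gene ENSG00000259827. At 50 bases, MT1X windows were shared with that gene and also with MT1G, MT1XP1 and MT1A. At 100 and 150 bases ENSG00000259827 was the only gene listed. The MT1X values at these lengths therefore reflect overlapping annotation of the same place, with no other metallothionein listed. The sources used here give neither the read length nor how shared reads were counted, so the MT1X counts are the least certain of the 3. The shares of the metallothionein sum given above, that of MT2A included, depend on this counting too.

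**Figure D3:**
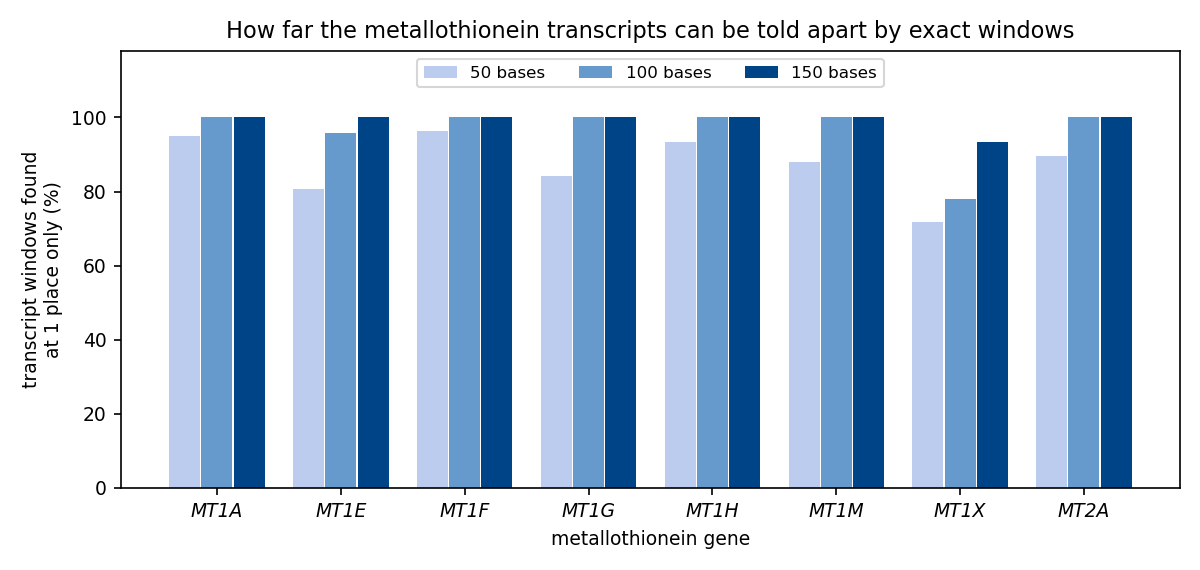
Bars give the percentage of 50-, 100- and 150-base windows of each metallothionein's canonical transcript that were found once, on an axis from 0. MT1X has the lowest value at each length, with 71.8%, 78.0% and 93.3%.

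The metallothioneins lie in a cluster of 17 genes at 16:56598985-56718108 of GRCh37, 119124 bases long. Within 1000000 bases on either side, 21 other genes were tested, of which 10 were higher, 6 lower and 5 not called, with a median log2 fold change of 0.20, and 2 of the 21, CES1 and ADGRG3, had a higher log2 fold change than MT2A. Both passed the filter on low counts only through the shMETTL3 libraries, where they are high. Over all genes tested, 33.7% were higher, 32.9% were lower and 2.82% had a higher log2 fold change than MT2A, and nothing particular to the region is read from these counts. On the side of MT2A, the nearest were BBS2 at 0.20 (adjusted p = 0.0052), OGFOD1 at 0.08 (adjusted p = 0.215) and NUDT21 at -0.12 (adjusted p = 0.0383), all by edgeR. On the side of MT1X, NUP93, a nuclear pore protein, was lower at -0.45 (adjusted p = 9.19e-08), HERPUD1, an endoplasmic reticulum stress gene, at -0.16 (adjusted p = 0.00899), and NLRC5, a regulator of MHC class I genes, was higher at 1.80 (adjusted p = 1.06e-06), all by edgeR. The call of NUDT21 was lost in 5 of the 6 fits that left out a library (adjusted p 0.0544 to 0.144, edgeR), and that of HERPUD1 without shMETTL3 replicate 2 (adjusted p = 0.0576, edgeR). Both changed sign with library size alone as the scaling, which moved the median of all genes up by 0.17.

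**Figure D4:**
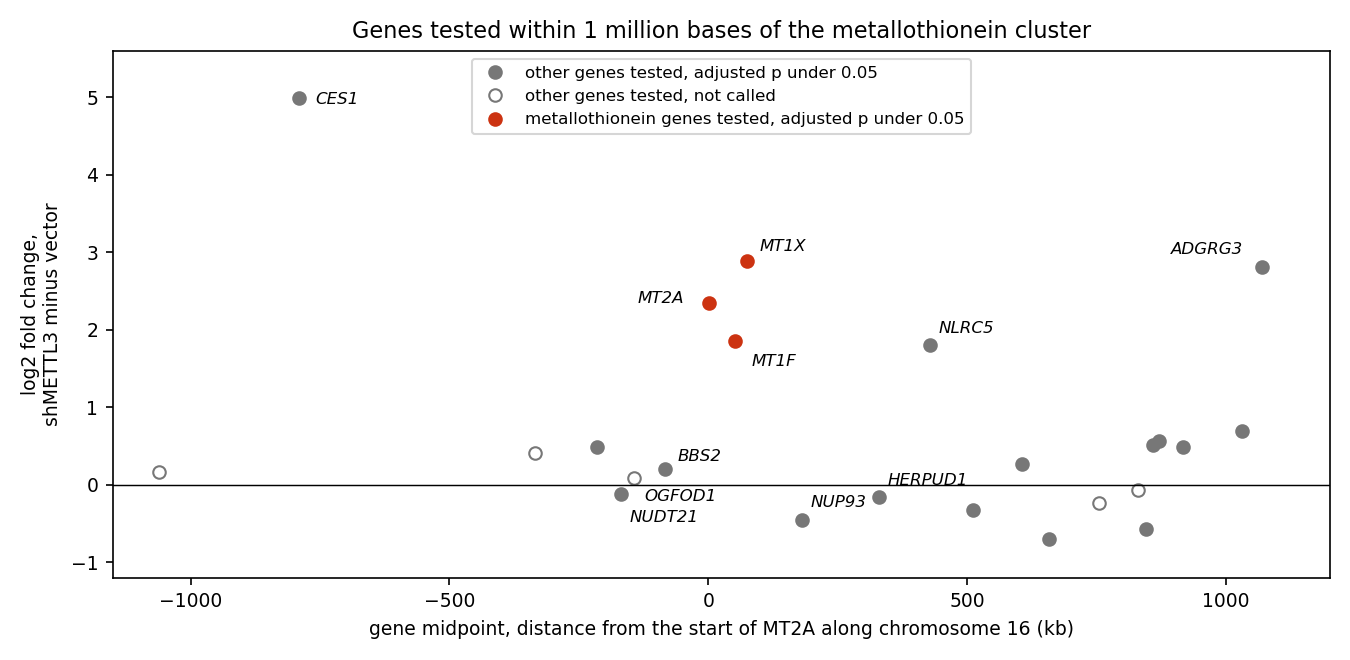
Points are genes tested within 1000000 bases of the cluster, with the distance of the gene midpoint from the start of MT2A in kilobases on the horizontal axis and the log2 fold change on the vertical axis; filled points passed an adjusted p of 0.05. MT2A, MT1F and MT1X lie at 2.35, 1.86 and 2.88, while the 21 other genes have a median of 0.20.

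METTL3 acts on RNA within a sequence context of which GGACT is a common form. No GGACT was found in the canonical transcripts of the 8 metallothioneins, which are 396 to 746 bases long. MTF1 held 6, or 0.756 per kilobase, and SLC30A1 held 4, or 0.679 per kilobase. The median over the 13534 tested genes with a transcript was 3, or 0.919 per kilobase, and 9.76% of them held none. MT2A was shorter than nearly all of them, at percentile 0.517 of length, and m6A was not measured in these libraries.

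Genes of zinc and copper handling, of the heavy metal stress response and of the glucocorticoid response were both higher and lower. With the other metallothionein genes, these lists were 6 with 67 genes, of which 44 were tested. Of the 44, 19 were higher, 13 lower and 12 not called. That is 72.7% called with a median log2 fold change of 0.09, against 66.6% and 0.0022 for all genes tested. The 19 include the glucocorticoid target CRISPLD2, which passed the filter on low counts only through shMETTL3. Its call adds nothing to these counts. Among the other metallothionein genes and pseudogenes, 10 of 11 were in the table, 6 had no count and none could be tested.

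Of the other SLC30 zinc exporters, 6 were tested, 4 were higher and none lower, with a median log2 fold change of 0.51. The share called was 66.7%, against 66.6% of all genes tested. The zinc transporters of the secretory pathway SLC30A5 and SLC30A6 rose by 0.63 (adjusted p = 1.93e-10) and 0.59 (adjusted p = 2.52e-09) by edgeR. SLC30A3 and SLC30A4, which load zinc into vesicles, were higher by 0.65 (adjusted p = 0.0107) and 0.43 (adjusted p = 0.00847) by edgeR. The call of SLC30A3 was lost without vector replicate 2 (adjusted p = 0.0606) or shMETTL3 replicate 3 (0.0633), and that of SLC30A4 without shMETTL3 replicate 3 (0.0824), by edgeR.

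The SLC39 importers, which bring zinc into the cytosol, were mixed, with 5 of 10 higher and 2 lower (70.0% called, against 66.6% of all genes tested) and a median of 0.05. SLC39A8 rose by 1.36 (adjusted p = 5.88e-16), the value of SLC39A4 was -1.43 (adjusted p = 3.08e-12), that of SLC39A14 -0.64 (adjusted p = 8.01e-12) and that of SLC39A11 0.31 (adjusted p = 0.000418), all by edgeR. SLC39A7 is listed at 0 in every library, and whether its reads were lost in alignment or counting was not tested. Of the copper genes, 3 of 11 were higher and 4 lower (63.6% called, against 66.6%), with a median of -0.14. The copper exporter ATP7A rose by 1.09 (adjusted p = 1.06e-11), the importer SLC31A1 by 0.80 (adjusted p = 2.61e-13) and SCO1, a copper chaperone of cytochrome oxidase, by 0.39 (adjusted p = 2.75e-07), while COMMD1 had -0.49 (adjusted p = 0.000257), all by edgeR.

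The list of heavy metal stress genes also holds the factor HSF1 and the chaperone gene HSPA8. Of this list, 3 of 8 were higher and 4 lower (87.5% called, against 66.6% of all genes tested), with a median of -0.06. HMOX1, the heme oxygenase, was at 79.9 ± 2.63 CPM (SD, n = 3) in vector and 197.87 ± 0.451 CPM (SD, n = 3) in shMETTL3, a log2 fold change of 1.31 (adjusted p = 3.36e-18, edgeR). The heat shock factor HSF1 had -0.39 (adjusted p = 1.24e-05), the chaperone genes DNAJB1 -0.38 (adjusted p = 1.24e-07) and HSPH1 0.32 (adjusted p = 1.93e-05), all by edgeR. HSPA1A and HSPA1B are listed at 0, and a loss of their reads in alignment or counting was not tested either. Of the glucocorticoid receptor and its targets, 4 of 9 were higher and 3 lower (77.8% called, against 66.6%), with a median of 0.14. CRISPLD2 had 5, 4 and 5 counts in vector and 40, 39 and 43 counts in shMETTL3, and is among the 4, but it passed the filter on low counts only through shMETTL3, so its value of 2.98 is a description. KLF9 rose by 0.86 (adjusted p = 8.72e-06) and TSC22D3 by 0.69 (adjusted p = 4.03e-08), while the clock gene PER1 had -1.63 (adjusted p = 1.78e-11), all by edgeR.

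**Figure D5:**
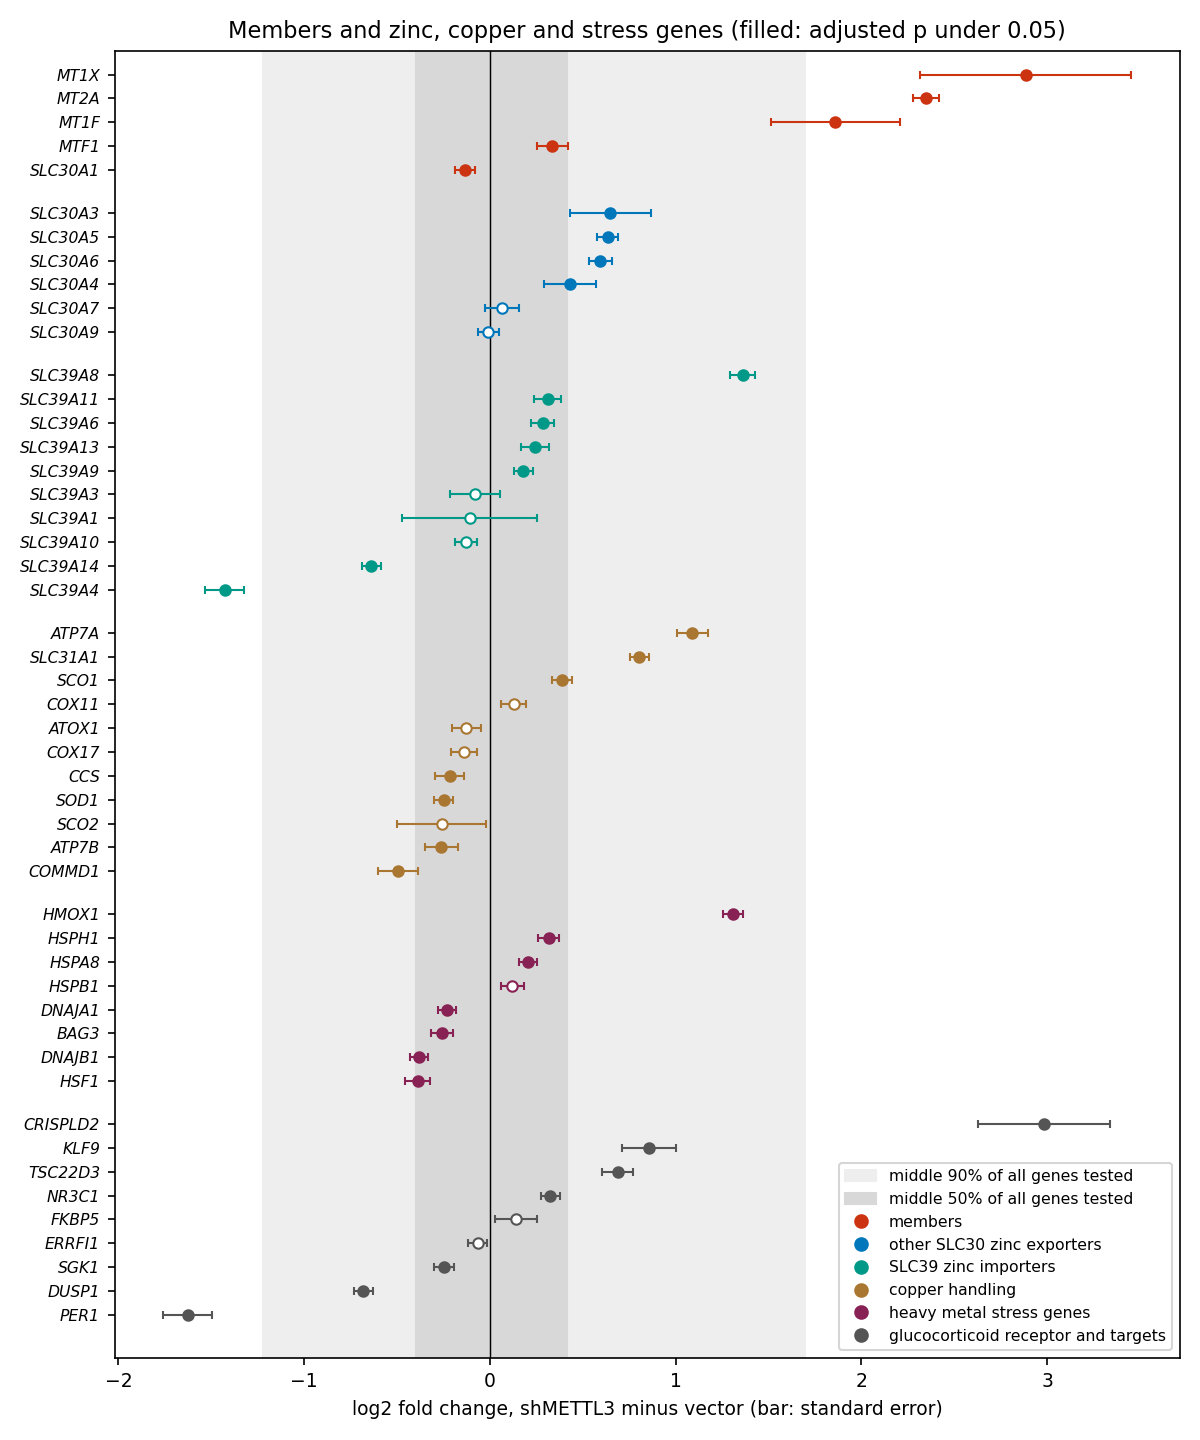
Each row is a gene of the family or of a list and each point its log2 fold change, shMETTL3 minus vector, with the standard error as a bar, filled where the adjusted p was under 0.05. Grey bands hold the middle 50% and 90% of all genes tested. MT2A, MT1F and MT1X lie at 2.35, 1.86 and 2.88, MTF1 at 0.34 and SLC30A1 at -0.13.

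The genes whose pattern over the 6 libraries was most like that of the summed metallothioneins were PMEPA1, MRC2, VIM, KIRREL1 and UBXN10. Likeness was the root mean square difference of centred log2 levels, among 11074 genes, and was 0.0440 for PMEPA1, 0.0648 for MRC2, 0.0652 for VIM, 0.0826 for KIRREL1 and 0.0978 for UBXN10. Their log2 fold changes were 2.32, 2.36, 2.30, 2.37 and 2.25. Choosing genes by likeness over the same 6 libraries largely fixes such values in advance. The points share libraries and depth, so this is a description with no test.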

How the data were processed

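RNA from 3 vector and 3 shMETTL3 libraries of A549 cells was analysed from the table of raw read counts per gene that the authors deposited. Per the labels, the submitters' processing notes name cutadapt 3.0, HISAT2 2.2.1, SAMtools 1.13, HTSeq 0.13.5 and DESeq2, and the methods of the study name hg19 and other versions of HISAT2 and HTSeq, so the versions behind the table are uncertain. The annotation and the strand setting are not given in the sources used here. The members and gene lists were chosen with earlier results of these data known. Counts were tested with the quasi-likelihood test of edgeR 4.0.16 (R 4.3.3) on group alone, with TMM scaling and filterByExpr, which kept 15125 genes, and Benjamini-Hochberg adjustment over them; an adjusted p under 0.05 was called. TMM factors were 0.920 to 0.953 in vector and 1.05 to 1.07 in shMETTL3. DESeq2 1.42.0 and limma-voom (limma 3.58.1), other scalings, filters, thresholds, a replicate block and leaving out each library were alternatives. Standard errors of differences between genes ignore their correlation. Within groups, chi-square per degree of freedom over genes was 2.79 to 7.5, so no library was a copy of another. All 10 genes were named, up to 4 tested genes of each list by absolute log2 fold change, the 3 nearest tested genes on each side of the cluster, and the 5 most alike with an average log2 CPM of at least 2. Gene positions come from GENCODE on GRCh37, and promoters from RefSeq on GRCh38.p14.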

Additional observations from a re-analysis of the deposited data

How the results depend on the processing

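MT2A, MTF1 and METTL3 kept their direction and call in each alternative that could test them, except that MTF1 misses a minimum log2 fold change of 1. MT1F and MT1X, which entered the test only through shMETTL3, could not be tested with at least 10 counts in every library, when 2 of the 10 genes and 9076 of 13384 genes were called. With an absolute log2 fold change of at least 1, 2668 of 15125 genes were called. So were 3 of these genes (MT2A, and MT1F and MT1X with the limit above). The pathway lists then had 6 genes called, CRISPLD2 with the same limit among them. SLC30A1 had -0.11 with upper-quartile scaling (adjusted p = 0.0754, edgeR), -0.12 with at least 10 counts in every library (0.0614), 0.040 with library size alone, and -0.13 at its adjusted p of 0.0320, which misses 0.01. With library size alone, NUDT21 was 0.050 and HERPUD1 0.014 while the median of all genes moved up by 0.17, the summed metallothionein ratio was 5.71, and 6750 genes were higher and 3509 lower against 5090 and 4977. Leaving out each library gave 9410 to 10072 genes called, among 15407 to 15568 tested. Of the 10 genes, 4 to 5 were called, MT1F and MT1X with the limit above among them. Of the 67 pathway list genes, 31 to 34 were called, CRISPLD2 with that limit among them. Log2 fold changes were then -0.19 to -0.10 for SLC30A1, 2.30 to 2.38 for MT2A and 0.26 to 0.37 for MTF1. They were 1.65 to 2.27 for MT1F, 2.32 to 3.69 for MT1X and -1.38 to -1.34 for METTL3. Libraries of the same replicate number did not deviate together (correlations 0.0516, -0.00663 and 0.0333). With the replicate block, 10111 of 15125 genes were called. The 5 of the 10 genes called there included MT1F and MT1X, which carry the limit above. SLC30A1 then had an adjusted p of 0.0198 (edgeR). At this depth 5 of the 10 genes could not be tested. The cause of these changes was not tested.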

Other observations

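CES1, a carboxylesterase gene, and ADGRG3, an adhesion G protein-coupled receptor gene, were chosen after their values were seen. They had the highest log2 fold changes among the other genes tested within 1000000 bases of the metallothionein cluster. CES1 had 1, 0 and 2 counts in vector replicates 1, 2 and 3, and 45, 43 and 28 counts in shMETTL3 replicates 1, 2 and 3. ADGRG3 had 7, 6 and 4 counts in vector and 37, 46 and 48 counts in shMETTL3. Both genes passed the filter on low counts only through the shMETTL3 libraries. The pseudogene MT1DP had 0, 2 and 3 counts in vector and 9, 0 and 1 counts in shMETTL3, so its groups overlap.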
